A study of Mus musculus with 8 samples.

Results

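The transcripts of 9 genes that carry the signal to divide in intestinal crypts, or hold it back, were read in single epithelial cells: Myc, the D-type cyclins Ccnd1, Ccnd2 and Ccnd3, their kinases Cdk4 and Cdk6, the kinase inhibitors Cdkn1a (p21) and Cdkn1b (p27), and the surface receptor Cd44. They were taken by symbol from the gene list of the deposited matrices, and each symbol matched 1 of the 27998 genes. The cells carried EpCAM, an epithelial surface protein, and had been sorted from small intestinal crypts of adult female mice. In the group labelled KO, ieCtnnb1, an enhancer upstream of Ctnnb1 (the gene of β-catenin), had been deleted from the mouse genome, in every tissue and not in epithelium alone. The group labelled WT was not plain wild type: per the study's methods and legends these controls carried, at the H11 locus, a reporter in which the enhancer drives LacZ and iCre. The labels list 4 samples per group, but the values came as 1 matrix per group and no cell could be traced to a labelled sample. Each group was therefore 1 sample, no test between groups was possible, and every interval below is a 95% interval for counting error only.

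In the crypt, Wnt signals stabilize β-catenin, which joins TCF/LEF factors on DNA and switches on target genes. Myc, a transcription factor for growth and ribosome production, and Cd44, a receptor for hyaluronan in the matrix, are textbook Wnt targets of this tissue, and Ccnd1 is often named with them. D-type cyclins activate Cdk4 and Cdk6, which phosphorylate the retinoblastoma protein and open the way from G1 into S phase. Cdkn1a, a classic target of p53, and Cdkn1b bind cyclin and kinase complexes and restrain the cycle, and Cdkn1a is known to mark crypt cells that leave the cycle to differentiate.

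Cells were put into classes by markers other than the 9 genes, and each class is a range of a marker share rather than a proven cell type. From 15987 WT and 12763 KO barcodes, 13095 and 8658 cells passed the limits on genes and mitochondrial UMIs (unique molecular identifiers, each standing for a captured transcript), and 10588 and 5881 of these had the 1500 UMIs needed for a class. Stem-like cells numbered 109 in WT and 111 in KO, S-phase-like cells 410 and 649, and mitotic-like cells 1884 and 966, and these 3 classes together are called crypt progenitor cells (2403 and 1726). There were 1621 and 639 goblet-like, 3556 and 1194 Paneth-like, 185 and 109 enteroendocrine-like, 100 and 56 tuft-like, 713 and 329 low enterocyte-like and 658 and 920 high enterocyte-like cells, the last pair being split at 500 enterocyte marker UMIs per 10000. Within 20% of a limit lay, for example, 987 WT and 477 KO cells at the stem limit and 228 and 162 at the enterocyte limit. Non-epithelial cells were rare: 0 WT cells and 1 KO cell passed the lymphocyte gate, and stromal markers gave 40 and 13 UMIs in all kept cells. The matrices held 134876816 and 123794575 UMIs in all and shared 57 barcodes.

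KO cells were the deeper ones in each of the 9 classes, with a median of 16605 UMIs against 8913 in WT for crypt progenitor cells. KO progenitor cells also had fewer stem marker UMIs (8.52 against 14.4 per 10000, medians) and fewer mitosis marker UMIs (17.6 against 34.4). Their Paneth marker UMIs were 248 against 433. These may come from free RNA, but their source was not tested. Levels are given as CPM, the UMIs of a gene per 1000000 UMIs of its class, and KO to WT ratios as log2 with the interval in parentheses. The median ratio of the 11213 genes with at least 50 UMIs in progenitor cells was −0.38, so ratios relative to this median are given as well. Ratios also followed transcript length, with medians of 0.20 for the quartile of genes with the shortest summed exons and −0.87 for that with the longest, and the part of depth, free RNA and length in the ratios below was not tested. Ctnnb1 itself, whose body the deletion leaves intact, had 219.8 CPM in WT progenitor cells against 136 in those of KO, a ratio of −0.69. This stands beside the median of −0.38 for all genes, so −0.69 is not a difference of Ctnnb1 alone.

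In crypt progenitor cells the 9 genes did not differ in one direction. Cdkn1b was at 60.5 and 24.4 CPM in WT and KO, a ratio of −1.31 (−1.44 to −1.18). Cd44 was at 34.6 and 20.2, a ratio of −0.78 (−0.93 to −0.62). Cdk4 was higher in KO, at 178 and 271 CPM with a ratio of 0.60 (0.55 to 0.66). Also higher in KO were Myc at 18.2 and 24.2 (0.41, 0.24 to 0.59) and Ccnd3 at 23.3 and 32.1 (0.47, 0.31 to 0.62). The remaining 4 were lower in KO by less than Cd44, with ratios of −0.46 (−0.54 to −0.37) for Cdk6, −0.33 (−0.39 to −0.28) for Ccnd1, −0.21 (−0.35 to −0.064) for Cdkn1a and −0.11 (−0.14 to −0.077) for Ccnd2. Taken relative to the median gene, the latter 3 stood at 0.048, 0.17 and 0.27, so that their direction depends on what they are set against. Those for Cdk6 (−0.076), Cd44 (−0.39) and Cdkn1b (−0.93) stayed below 0, and those for Myc (0.80), Ccnd3 (0.85) and Cdk4 (0.99) above it. Genes of like summed exon length had other medians. The median was −0.22 for the length quartile of Myc, Cdk4 and Cdkn1a and −0.55 for that of Ccnd1 and Cdkn1b. For the quartile of Ccnd2, Ccnd3, Cd44 and Cdk6 it was −0.87. The ratios of Cd44 and Cdk6 lay above that median, so their direction also depends on what they are set against. That of Cdkn1b lay below the median of its quartile.

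A ratio is called past the fold at 1 log2 unit or more. In progenitor cells 1 of the 9 genes, Cdkn1b, was lower in KO past the fold, beside 16.9% of all genes. None of the 9 (0) was higher, beside 0.526%. Relative to the median gene 0 were past the fold in either direction, beside 4.95% of all genes lower and 3.48% higher. Over the 9 classes, 10 of 81 pairs of gene and class were lower past the fold, 8 of them Cdkn1b and 2 Cd44. Higher past the fold were 5 pairs, 4 of them Myc and 1 Cdk4. Of the 81 pairs, 73 had at least 50 UMIs over both matrices, and of these 9 were lower and 2 higher past the fold. Of the pairs past the fold, those lost were Cd44 in high enterocyte-like cells and Myc in tuft-like, low enterocyte-like and high enterocyte-like cells. The share of all genes with at least 50 UMIs that were lower past the fold in the single classes was 9.59% in stem-like, 14.4% in S-phase-like, 17.6% in mitotic-like, 15.6% in goblet-like, 7.48% in Paneth-like, 15.6% in enteroendocrine-like, 12.2% in tuft-like, 16.1% in low enterocyte-like and 18.4% in high enterocyte-like cells. The share higher past the fold was 1.2% in stem-like, 0.782% in S-phase-like, 0.427% in mitotic-like, 2.05% in goblet-like, 2.32% in Paneth-like, 4.36% in enteroendocrine-like, 1.65% in tuft-like, 3.13% in low enterocyte-like and 2.69% in high enterocyte-like cells.

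**Figure D1:**
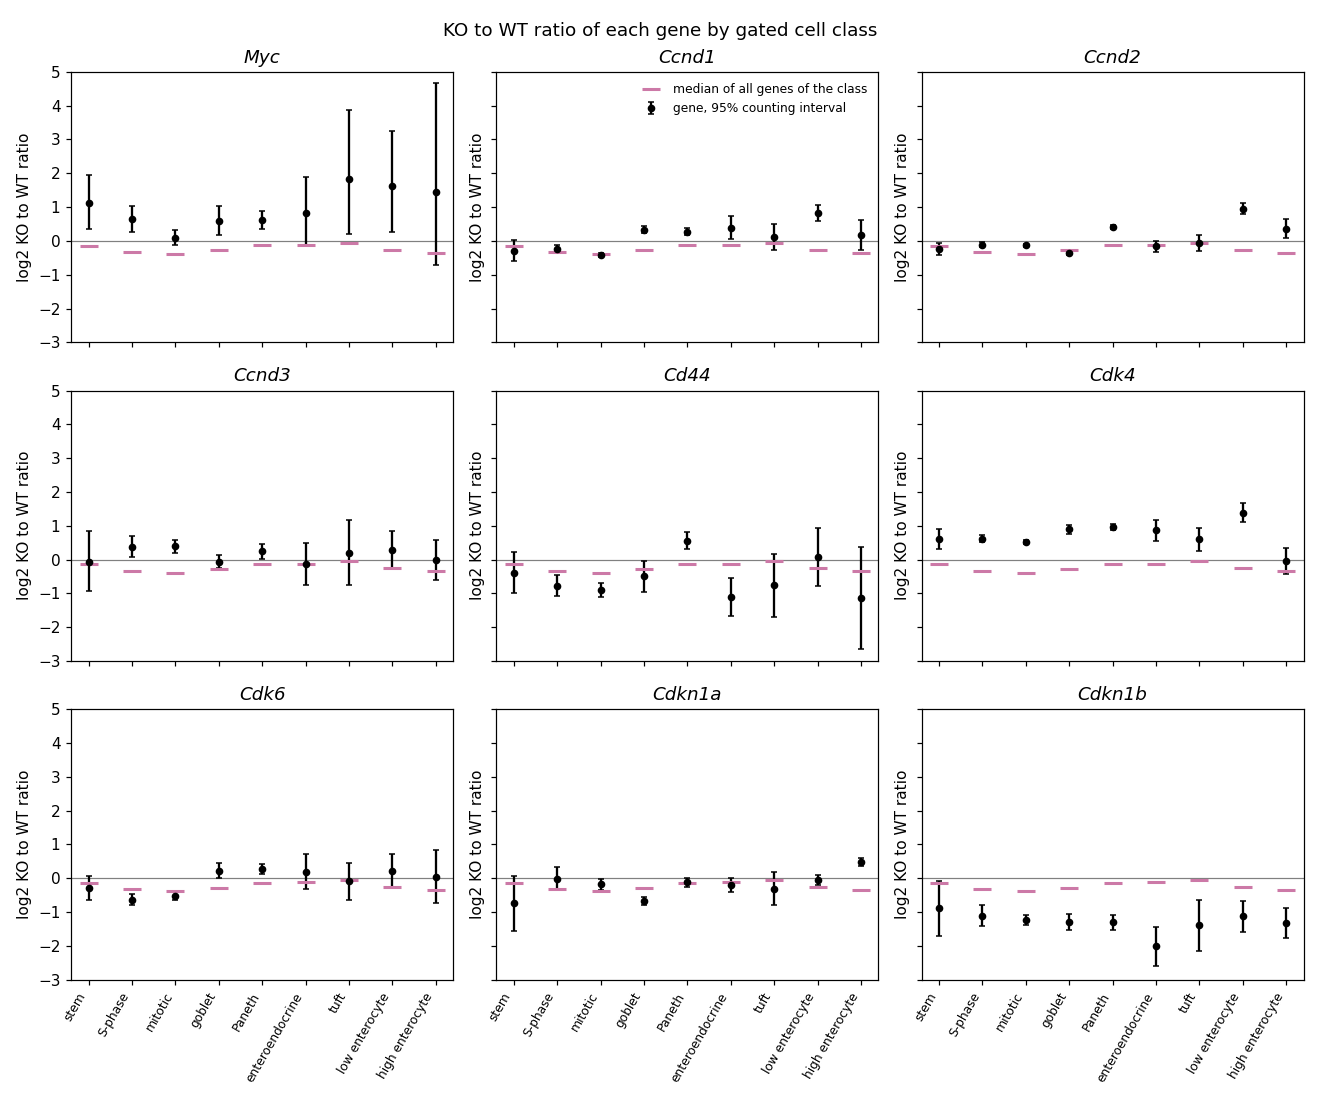
KO to WT ratio of each gene (vertical axis, log2) in each of the 9 gated cell classes (horizontal axis). Points are the ratio with its 95% counting interval, and the pink bars are the median of all genes of that class. Cdkn1b lies below 0 in all 9 classes, with ratios from −2.01 to −0.89, whereas Cdk4 lies above 0 in 8 and Myc in 9. The interval of Myc lies above 0 in 6 classes, and its ratio in high enterocyte-like cells rests on 2 WT and 12 KO UMIs.

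Myc (ENSMUSG00000022346) lies at chr15:61985391-61990374 on the plus strand (GRCm38, as are the positions below). In WT its level was 21.8 in stem-like, 19.8 in S-phase-like, 17.7 in mitotic-like, 6.67 in goblet-like, 3.05 in Paneth-like, 13.4 in enteroendocrine-like, 5.71 in tuft-like, 1.48 in low enterocyte-like and 0.565 in high enterocyte-like cells, in CPM. In KO it was 47.2 in stem-like, 31.0 in S-phase-like, 18.9 in mitotic-like, 10.1 in goblet-like, 4.68 in Paneth-like, 23.8 in enteroendocrine-like, 20.4 in tuft-like, 4.60 in low enterocyte-like and 1.56 in high enterocyte-like cells. The level in each matrix was thus lowest in high enterocyte-like cells, and in KO it was highest in stem-like cells (35.7 to 61.1). In WT the intervals of stem-like (13.1 to 34.1), S-phase-like, mitotic-like and enteroendocrine-like cells (6.95 to 23.5) overlapped, so no order can be given among them. In KO mitotic-like cells (up to 21.0) lay below S-phase-like ones (from 27.7). High enterocyte-like cells held 2 Myc UMIs in WT and 12 in KO, in 0.304% (0.0368 to 1.09) and 1.20% (0.598 to 2.13) of cells (exact Clopper-Pearson intervals, as for the shares below). Median depths there were 5421.5 and 8687 UMIs, and this level is read here as background.

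The KO to WT ratio of Myc was above 0 in 9 of 9 classes, from 0.094 in mitotic-like to 1.83 in tuft-like cells, and the interval was above 0 in 6. The 9 include high enterocyte-like cells, whose level was read above as background. In tuft-like cells the ratio rests on 4 WT and 16 KO UMIs (0.20 to 3.87), and in low enterocyte-like cells on 6 and 20. In stem-like cells the ratio was 1.11 (0.34 to 1.94), from 19 UMIs in WT and 57 in KO. In mitotic-like cells it was 0.094 (−0.13 to 0.32), whose interval includes 0. A UMI of Myc was found in 14.8% (13.4 to 16.3) of WT and 31.3% (29.2 to 33.6) of KO progenitor cells. After thinning each cell to 2000 UMIs (0 and 3 cells left out) the shares were 3.37% (2.69 to 4.17) and 4.93% (3.96 to 6.06). In progenitor cells sorted into bins of under 5, 5 to 10, 10 to 20 and at least 20 stem marker UMIs per 10000, Myc was at 4.50, 9.99, 17.7 and 29.3 CPM in WT, against 12.7, 22.3, 33.3 and 41.1 in KO. The level was higher with each step of the stem share in both matrices, and the ratios at matched share, 1.49, 1.16, 0.92 and 0.49, were larger than that of the pooled cells. The bins held 402, 480, 626 and 895 WT and 514, 458, 491 and 263 KO cells, so that the KO matrix had fewer cells at the upper end. Mitosis marker UMIs also differed within the bins, with medians of 42.6, 38.6, 30.9 and 30.7 per 10000 in WT and 23.6, 18.5, 12.7 and 9.40 in KO. Single stem markers differed between the matrices in both directions, as given below for Olfm4 and Ascl2, so an equal share need not mean like cells. The part of either in the ratios was not tested.

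Of the D-type cyclins, Ccnd1 (ENSMUSG00000070348) lies at chr7:144929931-144939925 on the minus strand. Its level in WT was 197 in stem-like, 273 in S-phase-like, 269 in mitotic-like, 129 in goblet-like, 24.6 in Paneth-like, 126 in enteroendocrine-like, 147 in tuft-like, 53.3 in low enterocyte-like and 17.5 in high enterocyte-like cells. The KO matrix held it at 161 in stem-like, 233 in S-phase-like, 203 in mitotic-like, 162 in goblet-like, 29.6 in Paneth-like, 164 in enteroendocrine-like, 160.3 in tuft-like, 94.9 in low enterocyte-like and 19.6 in high enterocyte-like cells. It was thus lower in KO in the 3 progenitor classes, with ratios of −0.29 (−0.59 to 0.014), −0.23 (−0.34 to −0.12) and −0.41 (−0.47 to −0.34), of which the interval of the first includes 0. It was higher in goblet-like (0.33, 0.23 to 0.43), Paneth-like (0.27, 0.16 to 0.37), enteroendocrine-like (0.39, 0.064 to 0.72) and low enterocyte-like cells (0.83, 0.59 to 1.08). Relative to the median gene, the value in the 3 progenitor classes was −0.15, 0.093 and −0.022, and in low enterocyte-like cells 1.09.

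Ccnd2 (ENSMUSG00000000184, chr6:127125162-127152193 on the minus strand) had its highest WT level in goblet-like cells. In WT it was at 570.0 in stem-like, 612 in S-phase-like, 573 in mitotic-like, 708 in goblet-like, 52.9 in Paneth-like, 536 in enteroendocrine-like, 397 in tuft-like, 124 in low enterocyte-like and 42.7 in high enterocyte-like cells. For KO cells the values were 485 in stem-like, 568 in S-phase-like, 521 in mitotic-like, 554 in goblet-like, 70.2 in Paneth-like, 479 in enteroendocrine-like, 383 in tuft-like, 239 in low enterocyte-like and 54.8 in high enterocyte-like cells. Goblet-like cells differed in make-up, with medians of 1392 goblet marker and 3.37 mitosis marker UMIs per 10000 at 6036 UMIs in WT, and of 939.5 and 5.93 at 17245 UMIs in KO. The part of this in the goblet-like ratios of Ccnd1, Ccnd2 and Cdkn1a was not tested. The level in WT goblet-like cells of 708 (692 to 724) lay above that in WT S-phase-like cells of 612 (587 to 638), whereas in KO the intervals of these classes overlapped. As for Ccnd1, low enterocyte-like cells held more of it in KO (0.95, 0.80 to 1.11), as did Paneth-like (0.41, 0.34 to 0.48) and high enterocyte-like cells (0.36, 0.090 to 0.64). Goblet-like cells held less (−0.35, −0.40 to −0.31), a value of −0.074 relative to the median gene. A UMI of Ccnd2 was found in 71.0% (68.6 to 73.3) of WT and 61.2% (57.2 to 65.1) of KO goblet-like cells thinned to 2000 UMIs.

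Ccnd3 (ENSMUSG00000034165, chr17:47505051-47599691 on the plus strand) was the D-type cyclin whose ratio in progenitor cells was above 0. In WT it was at 24.1 in stem-like, 30.2 in S-phase-like, 21.8 in mitotic-like, 38.1 in goblet-like, 5.98 in Paneth-like, 41.5 in enteroendocrine-like, 25.7 in tuft-like, 13.3 in low enterocyte-like and 10.5 in high enterocyte-like cells. KO levels were 23.2 in stem-like, 39.3 in S-phase-like, 28.6 in mitotic-like, 36.5 in goblet-like, 7.06 in Paneth-like, 37.9 in enteroendocrine-like, 29.3 in tuft-like, 16.3 in low enterocyte-like and 10.4 in high enterocyte-like cells. Its ratio had an interval above 0 in 3 classes, S-phase-like (0.38, 0.075 to 0.69), mitotic-like (0.39, 0.20 to 0.58) and Paneth-like cells (0.24, 0.028 to 0.45), and below 0 in none of the 9. Paneth-like cells had lower levels of all 9 genes than progenitor cells, and Paneth markers took 7096 of each 10000 UMIs there in WT and 6417 in KO (medians), so a CPM in these cells is set against a total that is mostly those markers. Ccnd1, Ccnd2 and Ccnd3 each overlap a gene on the other strand (LTO1, the antisense genes Gm43126 and 9330179D12Rik, and Bysl), and the sources used here do not give the use of strand in counting, so their values are uncertain to that extent. Along the bins of stem share Ccnd1 had ratios of −0.14, −0.42, −0.57 and −0.47, Ccnd2 of 0.20, −0.075, −0.30 and −0.19 and Ccnd3 of 0.56, 0.66, 0.40 and −0.014. The D-type cyclins thus kept no common direction at matched stem share.

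**Figure D2:**
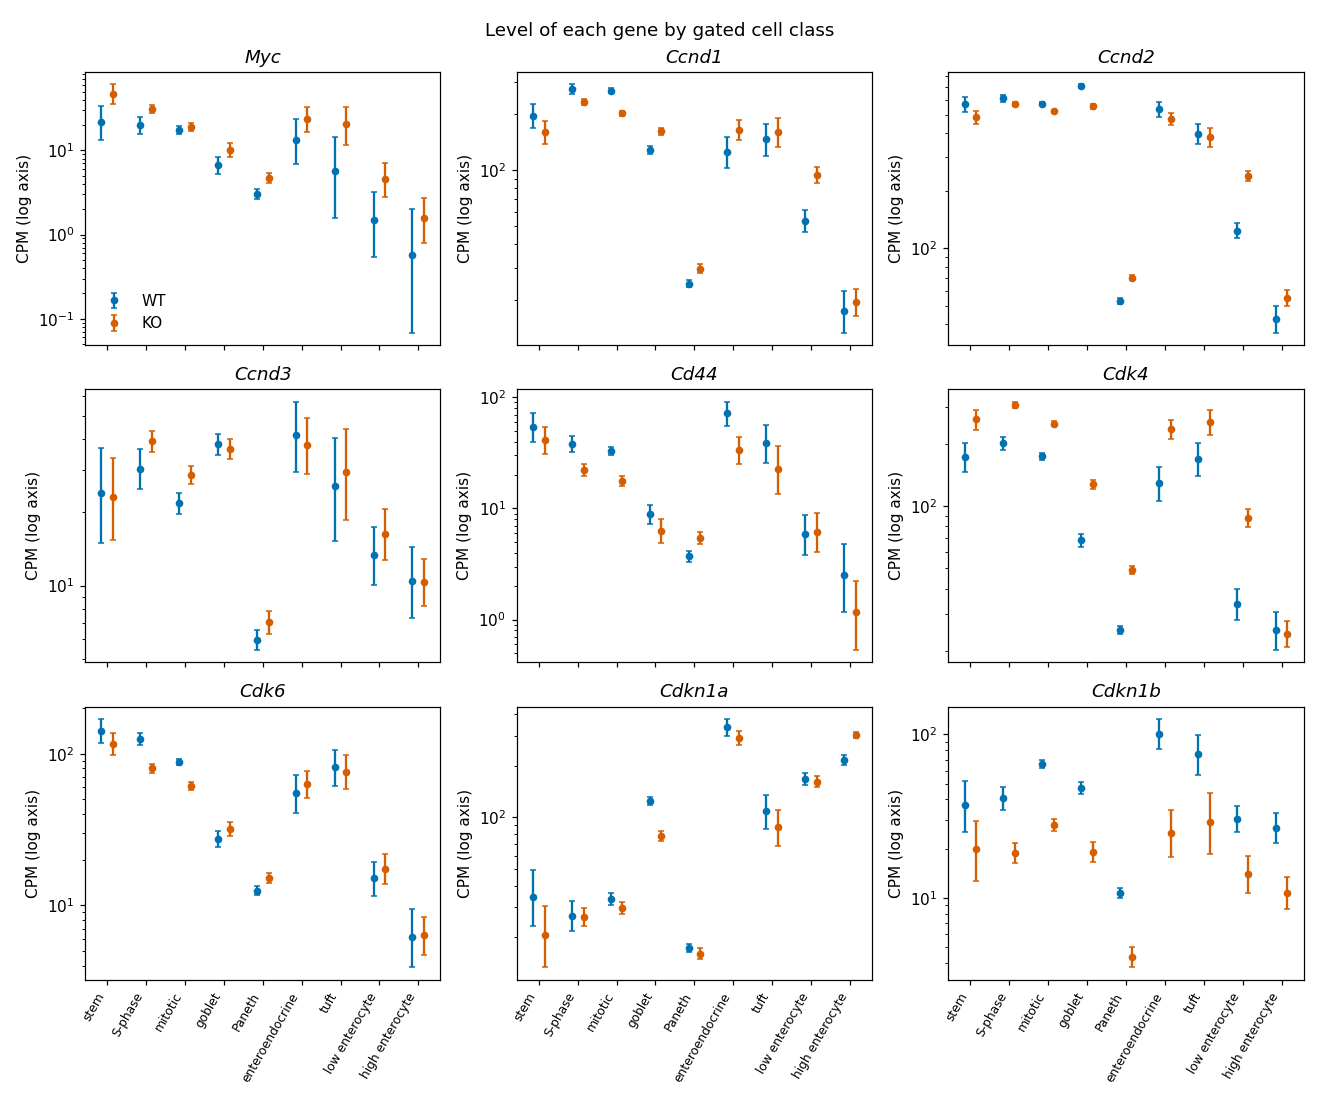
Level of each gene in CPM (vertical axis, log scale) in the 9 gated cell classes (horizontal axis) of the WT (blue) and KO (orange) matrix. Bars are exact Poisson 95% intervals. Myc, Cd44 and Cdk6 have their lowest levels in high enterocyte-like cells, where Cdkn1a is at 216 CPM in WT and 304 in KO.

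Cdk4 (ENSMUSG00000006728), the kinase that D-type cyclins activate, lies at chr10:127063534-127067920 on the plus strand and was higher in KO in 8 of the 9 classes. In WT it was at 172 in stem-like, 201 in S-phase-like, 174 in mitotic-like, 68.6 in goblet-like, 25.3 in Paneth-like, 129 in enteroendocrine-like, 169 in tuft-like, 33.6 in low enterocyte-like and 25.1 in high enterocyte-like cells. The corresponding KO levels were 262 in stem-like, 309 in S-phase-like, 250.1 in mitotic-like, 128 in goblet-like, 49.2 in Paneth-like, 235 in enteroendocrine-like, 254 in tuft-like, 87.5 in low enterocyte-like and 24.2 in high enterocyte-like cells. With intervals above 0, the ratio in these 8 ran from 0.52 (0.46 to 0.59) in mitotic-like to 1.38 (1.10 to 1.68) in low enterocyte-like cells, and was −0.053 (−0.42 to 0.33) in high enterocyte-like cells. Relative to the median gene it was above 0 in 9 of 9. In progenitor cells 96.3% of the 11213 genes had a lower ratio than Cdk4. Along the 4 bins of stem share it was at 123, 147, 176 and 222 CPM in WT, against 209, 281, 317 and 319 in KO, so that each KO value but that of the first bin lay above the highest WT value. A UMI of it was found in 28.8% (27.0 to 30.7) of WT and 43.2% (40.8 to 45.6) of KO progenitor cells after thinning. Cdk4 overlaps Tspan31 on the other strand.

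The sequence before the start of Cdk4 is shown because Cdk4 had the highest ratio of the 9 genes in progenitor cells and the window holds several E-boxes of the letters CACGTG, the motif that Myc with Max is known to bind. It is the 250 bases before the start at chr10:127063285-127063534 (GRCm38.p6, plus strand, from RefSeq), 5′ to 3′, with each E-box in capitals.
Cdk4: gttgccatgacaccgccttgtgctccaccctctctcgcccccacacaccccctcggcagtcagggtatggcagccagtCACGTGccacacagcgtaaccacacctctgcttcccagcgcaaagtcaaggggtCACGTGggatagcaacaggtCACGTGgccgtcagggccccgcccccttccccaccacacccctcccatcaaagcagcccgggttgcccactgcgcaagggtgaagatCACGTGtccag
It held 4 of these palindromes. Of 32851 mouse promoter windows of 300 bases (250 before and 50 after the start), 2349 (7.15%) held at least 1 and 8 (0.0244%) at least 4. The TCF/LEF core CTTTGA, searched on both strands, was found once in the Cdk4 window, and 16% of all windows held it. Windows were at hand for 6 of the 9 genes, 8 windows in all, and not for Myc, Ccnd1 and Ccnd2. The Cdk6 window held 1 E-box, and those of Ccnd3, Cd44, Cdkn1a and Cdkn1b held 0. A match is a description of letters, not a measured site, and the motif was picked after the Cdk4 values had been seen.

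Cdk6 (ENSMUSG00000040274, chr5:3341485-3531008 on the plus strand), the other kinase partner of D-type cyclins, differed from Cdk4. In WT it was at 142 in stem-like, 125 in S-phase-like, 88.5 in mitotic-like, 27.4 in goblet-like, 12.5 in Paneth-like, 54.9 in enteroendocrine-like, 81.4 in tuft-like, 15.05 in low enterocyte-like and 6.22 in high enterocyte-like cells. In KO it was at 116 in stem-like, 80.6 in S-phase-like, 61.3 in mitotic-like, 31.98 in goblet-like, 15.1 in Paneth-like, 63.0 in enteroendocrine-like, 76.3 in tuft-like, 17.5 in low enterocyte-like and 6.35 in high enterocyte-like cells. It was lower in KO in S-phase-like (−0.63, −0.80 to −0.47) and mitotic-like cells (−0.53, −0.64 to −0.42) and higher in Paneth-like cells (0.28, 0.13 to 0.42), with intervals including 0 in the other 6 classes. Genes of its length quartile had a median of −0.87 in progenitor cells, against its −0.46. Along the bins of stem share Cdk6 was at 26.5, 39.1, 88.1 and 166 CPM in WT, against 34.0, 62.6, 94.9 and 136 in KO, and the ratios were 0.36, 0.68, 0.11 and −0.28. In the 2 lower bins the intervals lay above 0, and in the bin of 10 to 20 the interval included 0. In the highest bin, with 1387 of the 2220 Cdk6 UMIs of WT progenitor cells, it lay below 0. Cells of equal stem share were not alike otherwise: mitosis marker UMIs differed within the bins. Single stem markers also differed in both directions, as given below for Olfm4 and Ascl2. The part of stem share in the pooled ratio was not tested. Cdk6 overlaps the antisense genes Gm17590 and Gm42435.

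Cdkn1b (ENSMUSG00000003031, chr6:134920401-134925513 on the plus strand), the p27 inhibitor, was the one gene of the 9 that was lower in KO in each of the 9 classes. In WT it was at 36.8 in stem-like, 40.7 in S-phase-like, 65.6 in mitotic-like, 46.9 in goblet-like, 10.7 in Paneth-like, 101 in enteroendocrine-like, 75.7 in tuft-like, 30.3 in low enterocyte-like and 26.8 in high enterocyte-like cells. In the KO matrix the levels were 19.9 in stem-like, 18.8 in S-phase-like, 27.9 in mitotic-like, 19.2 in goblet-like, 4.35 in Paneth-like, 25.1 in enteroendocrine-like, 29.3 in tuft-like, 14.0 in low enterocyte-like and 10.8 in high enterocyte-like cells. The KO level lay below the WT level with its interval in all 9 classes, and the ratio was nearest 0 in stem-like cells (−0.89, −1.72 to −0.079) and farthest in enteroendocrine-like cells (−2.01, −2.59 to −1.45). Relative to the median gene it lay between −1.88 and −0.75, past the fold in goblet-like, Paneth-like, enteroendocrine-like and tuft-like cells and not in the other 5. The share of all genes lower past the fold on that relative scale was 6.63% in stem-like, 5.29% in S-phase-like, 5.24% in mitotic-like, 7.19% in goblet-like, 4.78% in Paneth-like, 12.4% in enteroendocrine-like, 11.2% in tuft-like, 8.64% in low enterocyte-like and 7.91% in high enterocyte-like cells. In progenitor cells 6.34% of genes had a lower ratio, and the median of its length quartile was −0.55.

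The lower level of Cdkn1b in KO was also seen per cell and within bins. A UMI was found in 42.1% (40.1 to 44.1) of WT and 31.9% (29.7 to 34.1) of KO progenitor cells although the KO cells were deeper. After thinning the shares were 11.4% (10.1 to 12.7) and 4.76% (3.80 to 5.87). Along the bins of stem share it was at 58.3, 56.5, 53.03 and 69.2 CPM in WT, against 24.0, 20.2, 24.7 and 35.5 in KO. The ratios were −1.28, −1.48, −1.10 and −0.96, and no KO bin reached the lowest WT bin. Within each matrix mitotic-like cells held more of it than S-phase-like cells, at 65.6 (62.0 to 69.4) against 40.7 (34.5 to 47.7) in WT and 27.9 (25.5 to 30.4) against 18.8 (16.2 to 21.6) in KO. In WT the highest level was that of enteroendocrine-like cells, whose interval (81.1 to 124) overlapped that of tuft-like cells. These WT and KO enteroendocrine-like cells differed in make-up, with a median of 623 marker UMIs per 10000 at 2952 UMIs in WT and 223 at 13940 in KO.

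Cdkn1a (ENSMUSG00000023067, chr17:29090976-29100727 on the plus strand), the p21 inhibitor, had its highest levels outside the progenitor classes. In WT it was at 34.5 in stem-like, 26.8 in S-phase-like, 33.6 in mitotic-like, 124 in goblet-like, 17.4 in Paneth-like, 335 in enteroendocrine-like, 109 in tuft-like, 168 in low enterocyte-like and 216 in high enterocyte-like cells. In KO it was at 20.7 in stem-like, 26.5 in S-phase-like, 29.7 in mitotic-like, 78.1 in goblet-like, 16.1 in Paneth-like, 291 in enteroendocrine-like, 87.8 in tuft-like, 162 in low enterocyte-like and 304 in high enterocyte-like cells. Enteroendocrine-like and enterocyte-like cells thus held it at the highest levels, and Paneth-like and the 3 progenitor classes at the lowest. In high enterocyte-like cells KO lay above WT (0.49, 0.37 to 0.61), and in goblet-like cells, whose make-up differed as given for Ccnd2, below it (−0.67, −0.79 to −0.55). A UMI of Cdkn1a was found in 35.8% (32.1 to 39.7) of WT and 43.1% (39.8 to 46.5) of KO high enterocyte-like cells thinned to 2000 UMIs (22 and 34 cells left out). In goblet-like cells it was found in 22.1% (20.1 to 24.3) and 15.3% (12.5 to 18.3) of cells, thinned alike. In mitotic-like and stem-like cells the ratios were −0.18 (−0.35 to −0.013) and −0.74 (−1.56 to 0.079).

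Along the enterocyte marker share, over cells with no other lineage, the level of Cdkn1a was higher where that of the genes of division was lower. In bins of under 30, 30 to 150, 150 to 500, 500 to 1000 and at least 1000 enterocyte marker UMIs per 10000 it was at 25.8, 89.9, 168, 217 and 213 CPM in WT, against 26.0, 69.3, 162, 243 and 346 in KO. The matrices were close in the first bin and in that of 150 to 500, with ratios of 0.011 and −0.055, and lay furthest apart in the last (0.70), which held 115 WT and 557 KO cells. High enterocyte-like cells as a class therefore hold different mixtures of this share, with a median of 751 marker UMIs per 10000 in WT and 1133 in KO. Ccnd2 was at 610.4, 367, 124, 46.1 and 24.7 CPM in WT, against 559, 402, 239, 86.4 and 33.3 in KO over the same bins. Ccnd1 was at 279, 189, 53.3, 18.2 and 14.1 in WT and 223, 169.6, 94.9, 32.3 and 10.9 in KO. The levels of Cdk4 were 187, 83.3, 33.6, 25.9 and 21.1 in WT and 283, 142, 87.5, 32.01 and 18.9 in KO. For each of these 3 genes the level was lower from bin to bin in both matrices. In the bin of 150 to 500 the KO levels of Ccnd1, Ccnd2 and Cdk4 lay above those of WT, by 0.83, 0.95 and 1.38, whereas in the last bin the intervals of all 3 included 0. In the bin of 500 to 1000 their ratios, in the same order, were 0.83 (0.34 to 1.34), 0.91 (0.60 to 1.21) and 0.30 (−0.14 to 0.75). In that of 30 to 150 they were −0.16 (−0.26 to −0.054), 0.13 (0.061 to 0.20) and 0.77 (0.63 to 0.92). The bin of 150 to 500 holds the same cells as the low enterocyte-like class, so its values repeat those given above. The first bin, of cells with few enterocyte UMIs, gave ratios of −0.33 for Ccnd1, −0.13 for Ccnd2 and 0.60 for Cdk4.

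**Figure D3:**
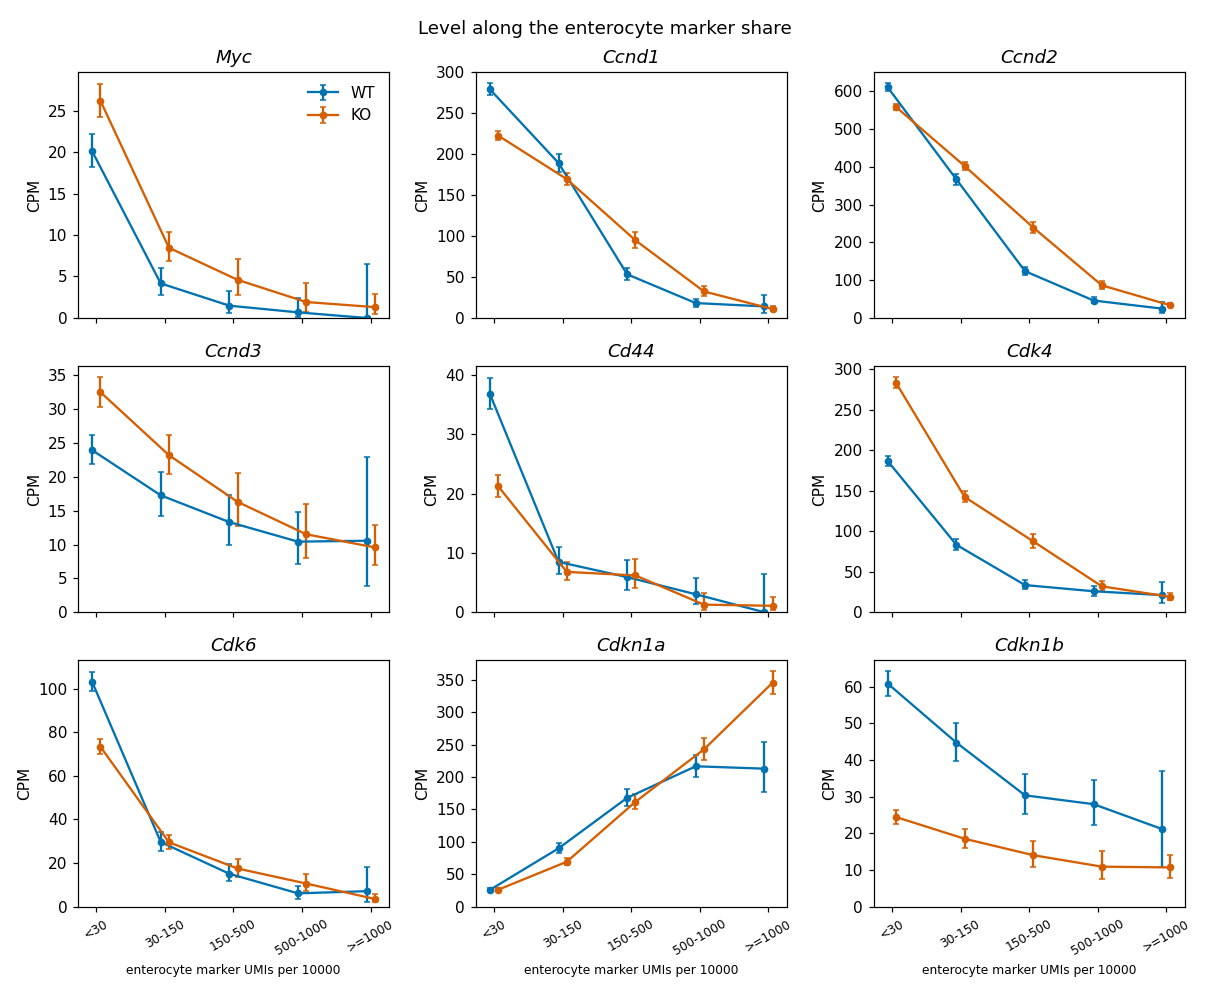
Level of each gene in CPM (vertical axes, from 0) in bins of enterocyte marker UMIs per 10000 (horizontal axis), over progenitor cells, cells past no gate and enterocyte-like cells of the WT (blue) and KO (orange) matrix, with exact Poisson 95% intervals. Cdkn1a is higher in each bin up to 500 to 1000 in both matrices and in the last bin stands at 346 CPM in KO against 213 in WT, while the levels of Ccnd1, Ccnd2 and Cdk4 become lower from bin to bin.

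Cd44 (ENSMUSG00000005087, chr2:102811141-102901665 on the minus strand) was at 54.0 in stem-like, 38.0 in S-phase-like, 33.0 in mitotic-like, 8.87 in goblet-like, 3.70 in Paneth-like, 71.7 in enteroendocrine-like, 38.6 in tuft-like, 5.92 in low enterocyte-like and 2.54 in high enterocyte-like cells in WT. KO cells had levels of 41.4 in stem-like, 22.2 in S-phase-like, 17.7 in mitotic-like, 6.32 in goblet-like, 5.45 in Paneth-like, 33.4 in enteroendocrine-like, 22.9 in tuft-like, 6.20 in low enterocyte-like and 1.17 in high enterocyte-like cells. Its level was thus highest in stem-like and enteroendocrine-like cells and near background in high enterocyte-like cells, where each matrix held 9 UMIs. The ratio had an interval below 0 in S-phase-like (−0.77, −1.08 to −0.46), mitotic-like (−0.90, −1.10 to −0.70), goblet-like (−0.49, −0.95 to −0.029) and enteroendocrine-like cells (−1.10, −1.66 to −0.55), and above 0 in Paneth-like cells (0.56, 0.31 to 0.81). In stem-like cells, from 47 and 50 UMIs, it was −0.38 (−0.99 to 0.22). Genes of the same length quartile had a median of −0.87 in progenitor cells, beside −0.78 for Cd44. Along the bins of stem share Cd44 was at 10.3, 14.8, 29.0 and 60.7 CPM in WT, against 8.05, 15.2, 28.7 and 47.9 in KO. At matched share the ratios were −0.36, 0.044, −0.014 and −0.34, with an interval below 0 in the highest bin and including 0 in the other 3. The summed share of the stem markers that set these bins was lower in KO progenitor cells, but its members went both ways. Olfm4, a marker of crypt base stem cells, was at 205 and 55.3 CPM in WT and KO (−1.89), and the Wnt target Lgr5 at 23.1 and 16.8 (−0.46). Ascl2, also a Wnt target, was higher in KO, at 29.0 and 43.8 CPM (0.60).

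**Figure D4:**
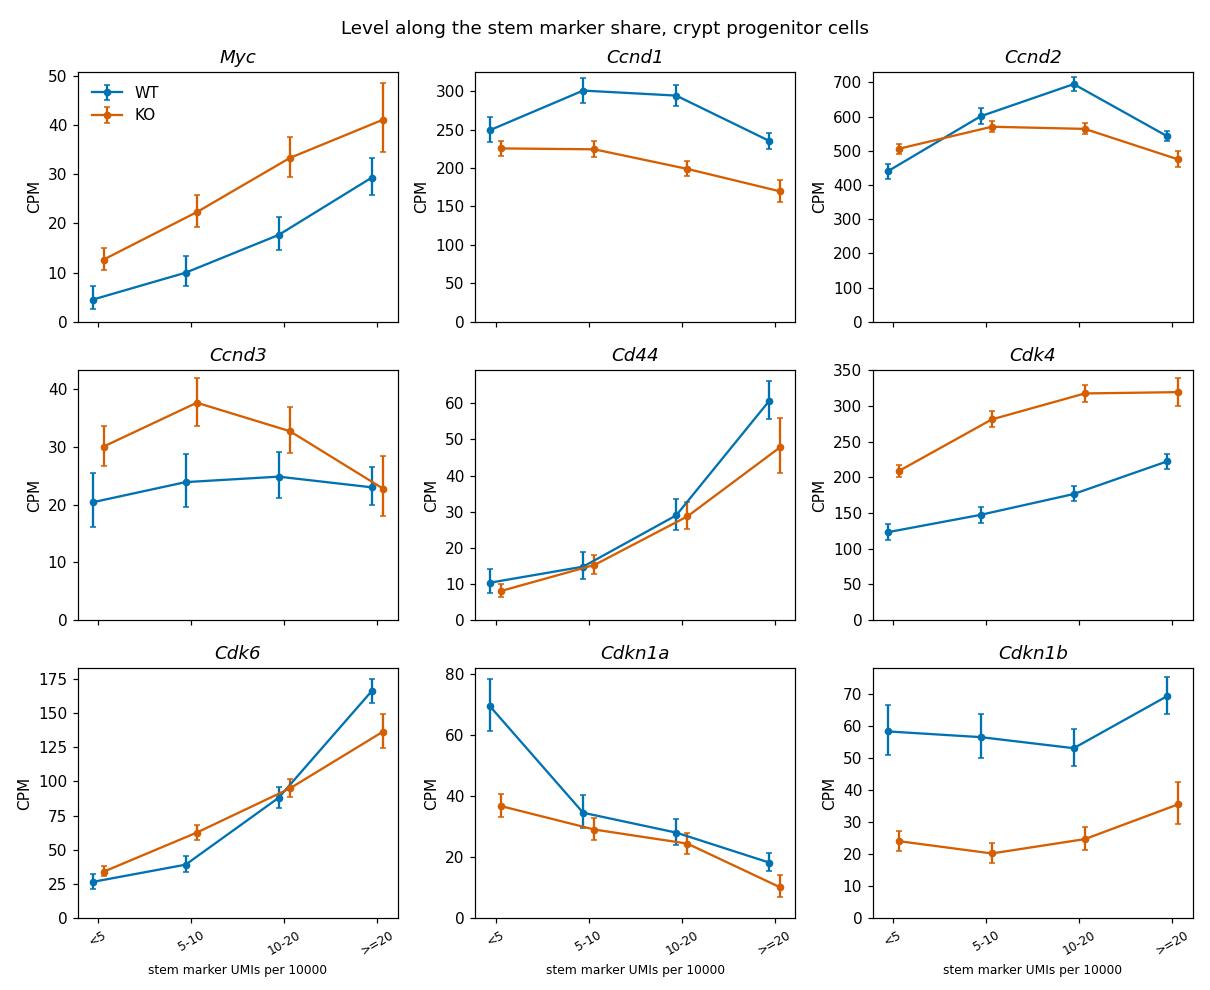
Level of each gene in CPM (vertical axes, from 0) in crypt progenitor cells by stem marker UMIs per 10000 (horizontal axis) in the WT (blue) and KO (orange) matrix, with exact Poisson 95% intervals. The WT and KO lines of Cd44 nearly meet in the 5 to 10 and 10 to 20 bins (29.0 and 28.7 CPM in the latter), those of Cdk6 cross, and those of Cdkn1b and Cdk4 stay apart.

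Genes that act beside the 9 were read in progenitor cells, where the median of all genes was −0.38 and 16.9% of all genes were lower and 0.526% higher past the fold. Of 25 partners in G1 and S entry, 24 had enough UMIs, 6 were lower in KO past the fold and 0 higher, with a median of −0.41. Log2 ratios stand in parentheses. Among these genes, Cdc25a, a phosphatase that activates cyclin-dependent kinases, was at 67.8 in WT against 34.4 CPM in KO (−0.98). Cks1b, a kinase subunit that also helps in the destruction of p27, was at 82.1 in WT against 88.9 CPM in KO (0.11). Ccna2 was at 120.5 in WT against 87.9 CPM in KO (−0.46) and E2f4 at 42.9 in WT against 42.7 CPM in KO (−0.0085). Ccne1, the cyclin that follows the D-type cyclins, was at 10.4 and 14.6 CPM, and its kinase Cdk2 at 10.6 and 10.1. The proliferation marker Mki67, which is one of the mitosis markers of the gate, was at 588 and 137 CPM.

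Of 10 genes of the Myc network, 10 had enough UMIs, with a median of −0.57, and 1 lower and 0 higher past the fold. Max, the partner of Myc, was at 30.3 in WT against 33.1 CPM in KO (0.13), Mlx at 60.2 in WT against 63.1 CPM in KO (0.070). The repressor Mga was at 44.8 in WT against 21.6 CPM in KO (−1.05) and Mxd4 at 26.7 in WT against 15.8 CPM in KO (−0.75). The 15 growth genes known to answer to Myc had a median of −0.097 in progenitor cells, above that of all genes, with 0 lower and 0 higher past the fold. Their most abundant members did not go one way. Ldha, of lactate formation, was at 694 in WT against 1055 CPM in KO (0.60), Npm1, of the nucleolus, at 1230 in WT against 1300 CPM in KO (0.079). The chaperone Hspd1 was at 941 in WT against 744 CPM in KO (−0.34) and nucleolin (Ncl) at 1090 in WT against 696 CPM in KO (−0.65). In low enterocyte-like cells the median of the 13 measured was 0.60, with 4 higher past the fold and 0 lower, beside 3.13% and 16.1% of all genes. In goblet-like and Paneth-like cells it was 0.36 and 0.46. The medians of all genes in these classes were −0.26, −0.28 and −0.13. Elsewhere the growth genes had medians of −0.013 in stem-like, −0.13 in S-phase-like and −0.18 in mitotic-like cells. In enteroendocrine-like, tuft-like and high enterocyte-like cells they were 0.37, 0.17 and 0.11.

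Other Wnt targets of the crypt had a median ratio below the ratios of Myc and the D-type cyclins. Of 13, 10 had enough UMIs in progenitor cells, 5 were lower in KO past the fold and 0 higher, with a median of −0.79. Axin2, a feedback inhibitor of the pathway, was at 83.5 in WT against 36.5 CPM in KO (−1.20). Ephb2, a receptor that positions crypt cells, was at 60.3 in WT against 24.8 CPM in KO (−1.28), and Kitl, the ligand of the receptor Kit, at 79.7 in WT against 34.2 CPM in KO (−1.22). Sox9, a transcription factor of the crypt base, was at 66.6 in WT against 68.0 CPM in KO (0.030). The list leaves out Wnt targets that served as stem markers, and one of these, Ascl2, had a ratio of 0.60, above those of Myc and the D-type cyclins. Of 14 p53 targets beside Cdkn1a, 13 were measured, with 3 lower, 1 higher and a median of −0.59. Bax, which promotes cell death, was at 110.4 in WT against 142 CPM in KO (0.36), Perp at 83.9 in WT against 81.1 CPM in KO (−0.049), Ccng1 at 38.2 in WT against 28.6 CPM in KO (−0.42) and the antiproliferative Btg2 at 48.6 in WT against 23.1 CPM in KO (−1.07). Of 11 partners of CD44, 4 were measured, with 1 lower and 0 higher past the fold and a median of −0.87. Ezr, which links CD44 to the cortex, was at 117 in WT against 82.7 CPM in KO (−0.50) and the hyaluronan receptor Hmmr at 114 in WT against 48.2 CPM in KO (−1.24). The Wnt coreceptor Lrp6 was at 48.8 in WT against 25.3 CPM in KO (−0.95) and Met at 25.6 in WT against 14.8 CPM in KO (−0.79).

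Immediate early genes, which cell dissociation is known to induce, were lower in KO in summed level in each of the 9 classes. Their summed level in progenitor cells was 971 CPM in WT and 546 in KO, and 7 of 14 were lower and 2 higher past the fold, with a median of −0.87. Jun was at 249 in WT against 84.0 CPM in KO (−1.56), Fos at 103 in WT against 37.4 CPM in KO (−1.47), Jund at 198 in WT against 173 CPM in KO (−0.20) and Ier2 at 124 in WT against 112 CPM in KO (−0.15). Over the 9 classes the summed level ranged from 513 to 3307 CPM in WT and from 251 to 1009 in KO. Myc, Cdkn1a and Btg2 are known to answer to the same stimuli, and the part of dissociation in their values was not tested.

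The genes whose pattern over the 18 points of class and matrix was most like that of each of the 9 were named by Pearson's r of log2(CPM + 10) among 4879 genes, as a description: the points share 2 libraries and their depth. For Myc these were Cd320 (0.96), Kcne3 (0.94) and Efna4 (0.93). For Ccnd1 they were Ybx3 (0.99), Nifk (0.98) and Nop58 (0.98), for Ccnd2 Parva (0.97), Ybx3 (0.97) and Cotl1 (0.96), and for Ccnd3 Sfr1 (0.94), Cfap20 (0.93) and Ssbp4 (0.93). For Cdk4 they were Apex1 (0.99), Isyna1 (0.99) and Mif (0.99), and for Cdk6 Cdca7 (0.99), Aqp4 (0.99) and Cdo1 (0.98). For Cd44 they were Snx10 (0.98), Trim24 (0.96) and Parp1 (0.95), for Cdkn1a Smim22 (0.92), Rhoc (0.91) and Sepp1 (0.87), and for Cdkn1b Atf7ip (0.98), Hipk1 (0.97) and Epc2 (0.96). Among the 9 themselves, r was 0.97 for Ccnd1 with Ccnd2, 0.90 for Myc with Cdk4, 0.90 for Cd44 with Cdk6 and 0.91 for Cdk4 with Cdk6. Cdkn1a had a negative r with Myc (−0.42) and Cdk6 (−0.39), and that of Cdkn1b with Myc was 0.20.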

How the data were processed

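Crypt cells sorted as EpCAM+ and DAPI- were captured with a 3′ droplet kit, and the authors aligned and counted the reads with the default settings of Cell Ranger. The submitters' processing notes name version 2.1.1 and the build mm10, whereas the file headers name 4.0.0. The deposited values are raw UMI counts per gene and barcode, 1 matrix per group, with nothing subtracted or normalized. One legend of the study gives 2 mice per genotype, pooled, and the labels list 4 samples. A replicate spread could therefore not be had, and intervals cover counting error only.

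Barcodes with at least 200 genes and at most 30% mitochondrial UMIs were kept, and those with at least 1500 UMIs were gated cell by cell on marker UMIs per 10000: Paneth at least 3000, goblet 400, enteroendocrine 30, tuft 10, enterocyte 150 and lymphocyte 10. Cells past more than 1 lineage gate (458 WT, 207 KO) were left out as possible doublets, and no doublet caller was run. Cells past no lineage gate and under 1000 Paneth UMIs were taken as mitotic at 15, else S-phase at 8, else stem at 10. UMIs were summed per class. CPM had exact Poisson intervals, shares of cells exact Clopper-Pearson intervals in the result files, and KO to WT ratios exact conditional binomial intervals, all at 95%. Genes with at least 50 UMIs over both matrices gave the medians and backgrounds. The ratio and interval code was tested on simulated data. Alternatives were 9 settings of filters, denominators, thinning, scale, gates and classes. Named genes were the 9, the 4 most abundant of each list, and for each of the 9 the 3 genes most alike in pattern among those with a mean of at least 20 CPM. The 9 genes, the lists, the gates and the bins were chosen with earlier results of these data known. Positions and exon lengths came from GENCODE annotation of GRCm38, in which 27645 of 27998 gene IDs matched. Tools were Python 3.11.15, numpy 2.4.6, scipy 1.17.1, pandas 2.3.3, scikit-learn 1.9.0, leidenalg 0.10.2 and matplotlib 3.10.9.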

Additional observations from a re-analysis of the deposited data

Results flagged for a closer look

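For 5 of the 9 genes the KO to WT ratio took opposite signs in different cell classes, with intervals that did not include 0 on either side. The difference between the classes was not tested, since each group was 1 matrix. Ccnd1 had a ratio of 0.83 in low enterocyte-like and −0.41 in mitotic-like cells, 1.24 log2 units apart, and relative to the median gene these were 1.09 and −0.022. Ccnd2 had 0.95 in low enterocyte-like and −0.35 in goblet-like cells, 1.31 apart, or 1.21 and −0.074 relative to the median gene. Cd44, the hyaluronan receptor, had 0.56 in Paneth-like and −1.10 in enteroendocrine-like cells, 1.66 apart, or 0.69 and −0.98 relative to the median gene, in classes where WT and KO differed in Paneth marker share and enteroendocrine marker share. Cdk6 had 0.28 in Paneth-like and −0.63 in S-phase-like cells, 0.91 apart, or 0.41 and −0.31 relative to the median gene. The S-phase-like cells had a median of 20.2 stem marker UMIs per 10000 in WT and 9.84 in KO, and in progenitor cells binned by that share Cdk6 had ratios of 0.36, 0.68, 0.11 and −0.28. Cdkn1a, the p21 inhibitor, had 0.49 in high enterocyte-like and −0.67 in goblet-like cells, 1.16 apart, and 0.84 and −0.39 relative to the median gene.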

How the results depend on the processing

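In crypt progenitor cells 8 of the 9 genes kept the direction of their ratio under all 9 alternatives, and Cdkn1a did not: with cells thinned to 2000 UMIs its value was 0.041. The other random draw, behind the shares, gave 35.6 CPM in WT and 30.5 in KO, the direction reported, so this change of sign did not recur. Thinning also gave −0.15 for Ccnd2 and 0.66 for Cdk4. Leaving genes above 1% of the UMIs out of the denominator gave −0.14 for Ccnd2. Classes built from clusters of each matrix gave −0.067 for Ccnd2 and −0.38 for Cdkn1a. Differences of means over cells of log2(UMIs per 10000 + 1), a scale that shrinks low genes by construction, were 0.093 for Myc, −0.11 for Ccnd1, −0.030 for Ccnd2, 0.11 for Ccnd3, −0.083 for Cd44, 0.51 for Cdk4, −0.088 for Cdk6, −0.024 for Cdkn1a and −0.27 for Cdkn1b. Pairs of gene and class higher in KO past the fold numbered 5, but 8 after thinning and 11 without the deepest 10% of cells, and those lower numbered between 8 and 12 around the 10 reported. For the values that moved, other than by the log scale, the cause was not tested. Of 753 class values under the alternatives 691 kept their sign and 62 took the other. Cdkn1b stayed below 0 in each class under each alternative run, and Cdk4 above 0 in 8 classes. The alternative with no UMI minimum was chosen after seeing the data. Clusters were not split into low and high enterocyte-like cells. No paired analysis was possible because each group came as 1 pooled matrix, and for the same reason no replicate could be left out. Depth limits Myc and Cd44 in high enterocyte-like cells, where 14 and 18 UMIs were counted over both matrices.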
